A study of Mus musculus with 8 samples.

Results

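The genes described are 7 genes of the bone morphogenetic protein (BMP) pathway in mouse embryonic stem cells: the ligand gene Bmp4, the receptor gene Bmpr1a, the 4 Id genes Id1, Id2, Id3 and Id4, and the inhibitory Smad gene Smad6. They were chosen by name, and each was found through its Ensembl identifier and GENCODE M21 symbol among the 36920 gene identifiers of the count table. RNA was sequenced from 1 embryonic stem cell line, R1, kept in medium with serum and LIF, a cytokine that holds such cells undifferentiated. ML-792, which blocks the E1 enzyme that starts SUMO attachment to proteins, was present for 48 h before the D3 libraries and again for 48 h before the D10 libraries, at a dose the labels give as 2.5 mM. The D1 and D8 libraries, labelled control, came just before each exposure, and D8 cells had already been through the first one. Each of the 4 groups had 2 libraries. The labels name no D3 or D10 library without ML-792, so the inhibitor and 48 h of further culture cannot be told apart. No label says that the libraries of a group came from separate cultures, and p-values then measure only the spread between these samples.

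BMP ligands bind a complex of type I and type II receptors, which phosphorylates Smad1, Smad5 and Smad9, and these enter the nucleus with Smad4. Id genes are the classical direct targets. ID proteins carry a helix-loop-helix but no DNA-binding basic region, and so hold E proteins and their partners away from DNA. In mouse embryonic stem cells in serum and LIF, BMP signalling and the Id genes it sustains are known for holding back neural differentiation, and Smad6 is a target that feeds back on the receptors.

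Levels are in CPM, the read count of a gene per TMM-adjusted size of its library, and fold changes are log2 values of ML-792 over control unless another pair is named. Calls were made where edgeR's quasi-likelihood test gave an adjusted p below 0.05 (Benjamini-Hochberg, over the 19173 genes tested). All 7 genes passed the filter on low counts. The libraries held 21040992 to 40835518 reads in genes. In D8 replicate 2, the deviation of genes from their mean level followed GC content, with a Spearman rho of 0.548 across 14693 coding genes. The other 7 libraries had a rho of -0.341 to 0.115. Most log2 fold changes of the 7 genes that rest on D8 replicate 2 are therefore also given without it. D1 replicate 2 carries a time tag of D0 beside its title D1, and it was kept with D1. All 8 listed embryonic stem cell markers were above 1 CPM on average. No gene of the 7 marker lists that was in the count table had 0 reads throughout. Of the 10 listed trophoblast markers, 9 were in that table, all but Tpbpa. Summed fibroblast markers were 23.9 to 45.2 CPM over the 8 libraries, with 7 of 12 above 1 CPM, and summed mesoderm markers were 10.9 to 45.5 CPM, with 3 of 9 above 1 CPM. Neural ectoderm markers, 4 of 8 above 1 CPM, summed to 68.6 and 76.1 CPM at D3, against 46.3 and 60.2 CPM at D1. At D10 they summed to 81.3 and 85.1 CPM, against 61.7 and 84.0 CPM at D8. Averaged over both exposures, 2 of the 5 tested were called higher (Nes and Zic1) and 0 lower, or 40%, beside 30.4% of all genes. Sox1 went the other way, with means of 8.87 CPM at D3 and 14.9 CPM at D1, and was not called.

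Id1 fell at the first exposure, to a mean of 53.5 ± 9.44 CPM at D3, against 117 ± 11.3 CPM at D1 (SD, n = 2 each). Averaged over both exposures, Id1 and Smad6 fell and Id3 rose, by log2 fold changes of -0.92, -1.26 and 1.29. The ligand gene Bmp4, the receptor gene Bmpr1a and the Id genes Id2 and Id4 were not called at either exposure. Of the 7 genes, 1 was called after the first exposure (Id1, lower), against 13% of all genes tested. After the second exposure 0 were called by edgeR and 0 by DESeq2, with 2 at an unadjusted p under 0.05 (Id1 and Smad6), against 16.9% of all genes. Averaged over both exposures, 3 were called, Id3 higher and Id1 and Smad6 lower, against 30.4% of all genes. The median log2 fold change of the 7 genes was 0.07 after the first exposure and -0.04 after the second, beside -0.002 and 0.03 over all genes tested. With 7 genes, these counts are near the background, and nothing particular to the group is read from them.

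**Figure D1:**
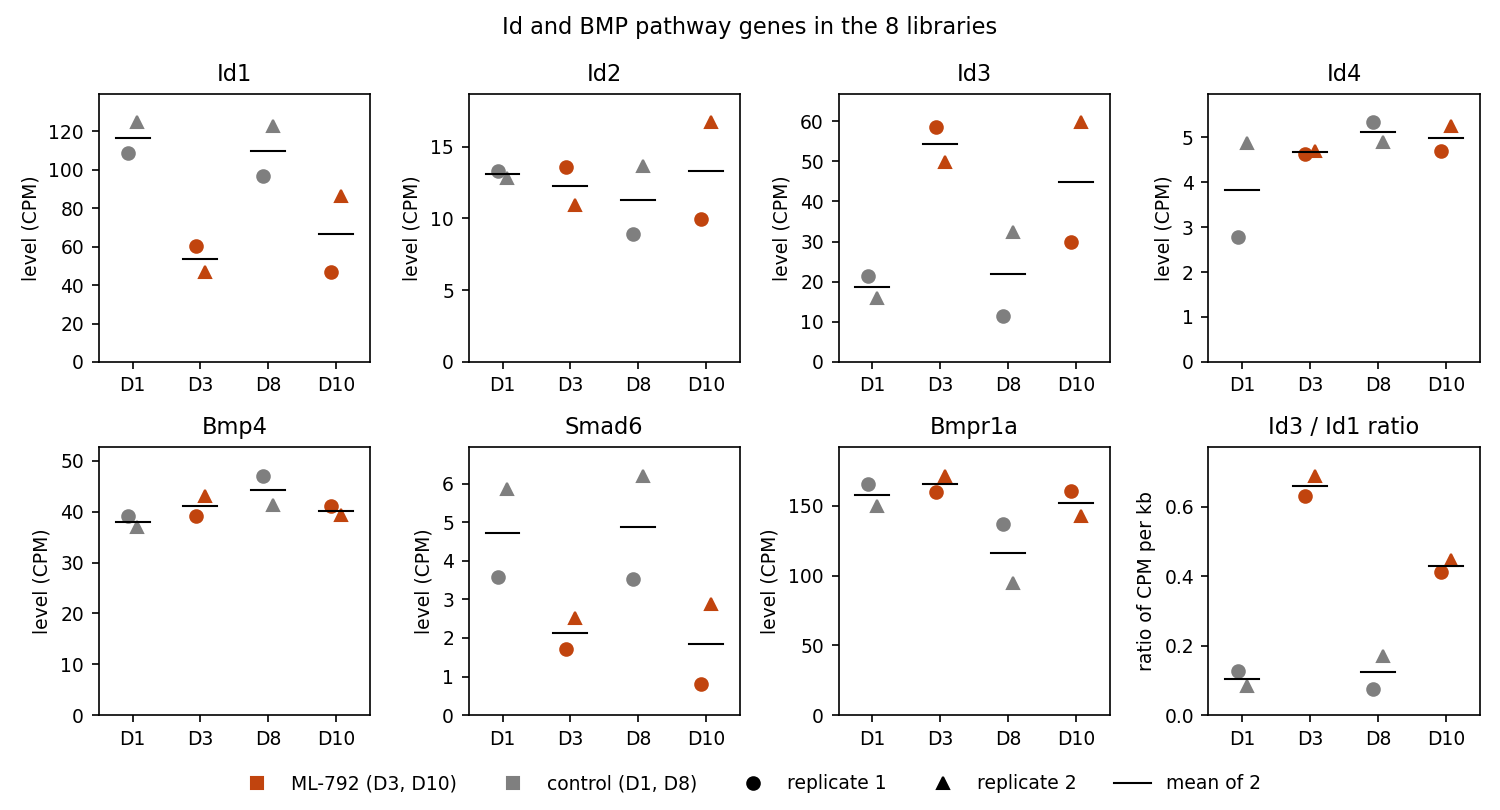
Level of each gene in CPM (vertical axes, linear, from 0) in the 8 libraries by group, with the ratio of Id3 to Id1 in CPM per kb in the last panel; circles are replicate 1, triangles replicate 2, bars the mean of 2, and colour separates ML-792 from control. Id1 and Smad6 sit lower in the ML-792 libraries of each exposure than in its control libraries, and all 4 ML-792 libraries have an Id3 to Id1 ratio of 0.411 or more.

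Bmp4 encodes the BMP ligand best known in these cells. It (ENSMUSG00000021835) lies on mm10 at chr14:46383520-46390669, minus strand, per GENCODE M21. Its level was 39.2 and 43.0 CPM in the D3 libraries and 39.2 and 36.9 CPM in the D1 libraries. In the D10 libraries it was 41.1 and 39.3 CPM, and in the D8 libraries 47.1 and 41.3 CPM. The D3 values sat just above the D1 values and the D10 values just below the D8 values, and the nearest libraries of the groups differed little. The log2 fold change was 0.11 ± 0.14 (SE, n = 2 libraries each) at the first exposure, with an adjusted p of 0.644 and a 95% interval of -0.20 to 0.42. At the second it was -0.14 ± 0.14, with an adjusted p of 0.532 and an interval of -0.45 to 0.17. Averaged over both, the interval was -0.23 to 0.21, the narrowest of the 7 genes. Without D8 replicate 2 the D10 value was -0.27 (adjusted p = 0.311) and the mean -0.09 (adjusted p = 0.547). The antisense gene Gm15222, which overlaps Bmp4, had 3 to 24 reads per library, against 819 to 1653 for Bmp4 itself.

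Bmpr1a encodes the type I receptor that binds BMP4 (ENSMUSG00000021796), at chr14:34410734-34503341, minus strand. It had 160 and 172 CPM in the D3 libraries, against 166 and 150 CPM in the D1 libraries. The D10 libraries had 161 and 143 CPM, and the D8 libraries had 137 and 95.02 CPM. The D3 and D1 values overlapped, whereas both D10 libraries lay above both D8 libraries, of which D8 replicate 2 was the lowest of all 8. Neither exposure was called, with log2 fold changes of 0.07 ± 0.18 (adjusted p = 0.84) at D3 and 0.39 ± 0.18 (adjusted p = 0.179) at D10. The 95% intervals ran from -0.34 to 0.48 at D3 and from -0.02 to 0.79 at D10. Without D8 replicate 1 the D10 value was 0.67 and was called (adjusted p = 0.0166), as was the mean of both, 0.37 (adjusted p = 0.0152), which was 0.23 ± 0.13 with all libraries (adjusted p = 0.21). Without D8 replicate 2 the D10 value was 0.11 (adjusted p = 0.683) and the mean 0.08 (adjusted p = 0.566), so that the size of the D10 difference rested on which D8 library was used. Per kb of exon its group means were 18.3 to 26.1 CPM per kb, below those of Id1 in every group.

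Id1 (ENSMUSG00000042745), the Id gene with the highest level per kb in all 4 groups, lies at chr2:152736251-152737410, plus strand. It had 60.2 and 46.8 CPM in the D3 libraries, against 109 and 125 CPM in the D1 libraries. In the D10 libraries it had 47.0 and 86.5 CPM, against 97.0 and 123 CPM in the D8 libraries. Every ML-792 library was below every control library, and the closest pair was D10 replicate 2 and D8 replicate 1. Id1 fell at the first exposure, by a log2 fold change of -1.13 ± 0.27 (adjusted p = 0.0295, 95% interval -1.75 to -0.51). At the second the value was -0.72 ± 0.27 and was not called (adjusted p = 0.107, interval -1.33 to -0.10), though it was called without D10 replicate 2 (-1.26, adjusted p = 0.0173). Without D10 replicate 1 it was -0.34 (adjusted p = 0.444), and without D8 replicate 2 it was -0.57 (adjusted p = 0.281). The mean of both exposures was -0.92 ± 0.19 (adjusted p = 0.00738), or 0.528 times the control level, and was -0.86 without D8 replicate 2 (adjusted p = 0.0125). The call at the first exposure was lost without D1 replicate 1, D1 replicate 2, D3 replicate 1 or D3 replicate 2, with an adjusted p of 0.0831 to 0.174 and a log2 fold change of -0.98 to -1.33. The call on the mean held without each of the 8 libraries in turn.

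Id3 (ENSMUSG00000007872), at chr4:136143497-136145755 on the plus strand, went the other way. It had 58.6 and 49.8 CPM in the D3 libraries, against 21.4 and 16.0 CPM in the D1 libraries. In the D10 libraries it had 29.8 and 59.8 CPM, against 11.4 and 32.5 CPM in the D8 libraries. The D3 libraries lay well above the D1 libraries, while D10 replicate 1 lay just below D8 replicate 2, so that the second pair of groups overlapped. The log2 fold change was 1.54 ± 0.47 at D3 (adjusted p = 0.0638, 95% interval 0.48 to 2.60) and 1.03 ± 0.46 at D10 (adjusted p = 0.161, interval -0.01 to 2.08), neither of them called. The D3 value was called by DESeq2 (1.55, adjusted p = 0.00348), and by edgeR without any 1 of the D8 and D10 libraries. It was not called without either D1 library (1.73 without replicate 1, 1.34 without replicate 2) or either D3 library (1.40 and 1.63). On the mean of both exposures Id3 rose by 1.29 ± 0.33 (adjusted p = 0.0179), or 2.44 times the control level. Without D8 replicate 2 the D10 value was 1.94 and was called (adjusted p = 0.0206), and the mean was 1.73 (adjusted p = 0.00167). The D10 value was 0.46 without D8 replicate 1 (adjusted p = 0.378) and 0.41 without D10 replicate 2 (adjusted p = 0.611). The call on the mean was lost without D1 replicate 2 (adjusted p = 0.0757), D3 replicate 1 (adjusted p = 0.0555) or D10 replicate 2 (adjusted p = 0.0528). Between libraries of the same replicate number, Id3 was higher with ML-792 in 4 of 4 pairs, by 0.88 to 1.64 on the log2 scale, and Id1 lower in 4 of 4. No label ties these numbers together, so the pairs are only a description. Set against D8 replicate 2, D10 replicate 1 had the lower Id3 level (29.8 against 32.5 CPM).

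**Figure D2:**
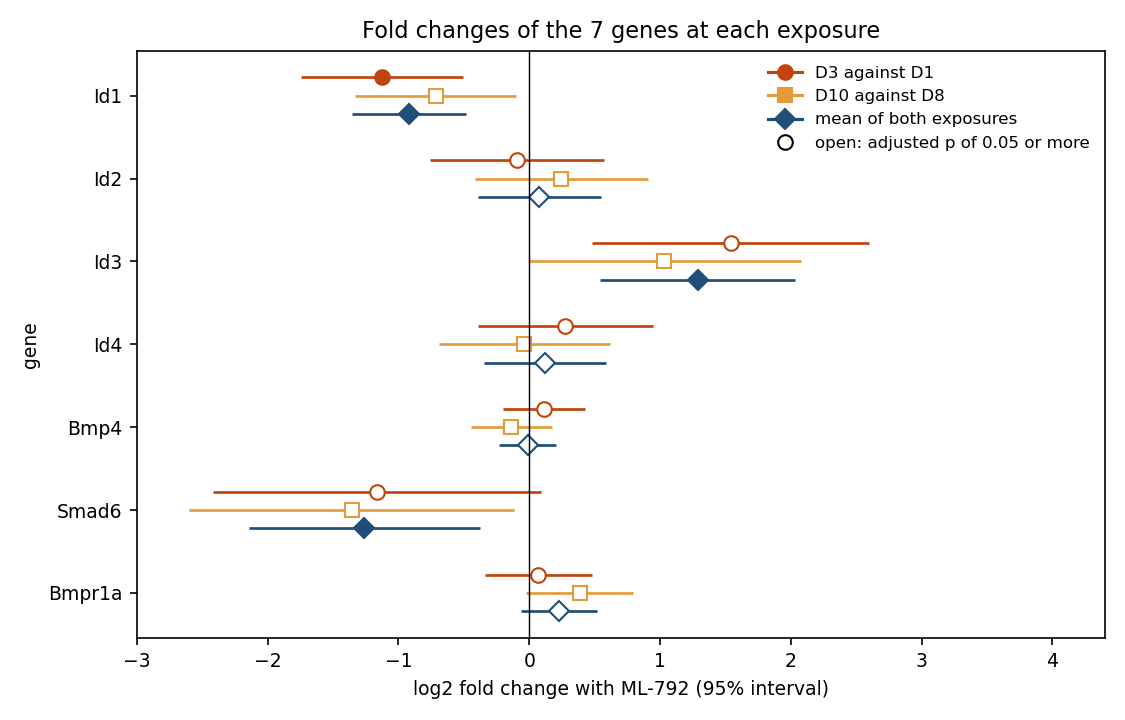
Log2 fold change with ML-792 for each of the 7 genes (rows), with the 95% interval as a line; circles are D3 against D1, squares D10 against D8 and diamonds the mean of both, filled where the adjusted p was under 0.05. Id1 and Smad6 lie left of 0 and Id3 right of 0 at both exposures, and the filled points are Id1 at D3 and Id1, Id3 and Smad6 on the mean.

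Id2 (ENSMUSG00000020644), at chr12:25093799-25097140 on the minus strand, had 13.6 and 10.97 CPM in the D3 libraries and 13.3 and 12.8 CPM in the D1 libraries. Its level was 9.97 and 16.7 CPM in the D10 libraries and 8.90 and 13.7 CPM in the D8 libraries. The groups overlapped at both exposures, and the log2 fold changes were -0.09 (95% interval -0.76 to 0.57, adjusted p = 0.873) and 0.25 (interval -0.42 to 0.91, adjusted p = 0.604). The D10 value of Id2 was 0.55 without D8 replicate 2 (adjusted p = 0.324). Id4 (ENSMUSG00000021379), at chr13:48261228-48266026 on the plus strand, was the Id gene with the fewest reads, 58 to 221 per library. It had 4.63 and 4.70 CPM in the D3 libraries and 2.77 and 4.88 CPM in the D1 libraries, and 4.70 and 5.25 CPM in the D10 libraries and 5.33 and 4.89 CPM in the D8 libraries. Its groups overlapped as well, with log2 fold changes of 0.27 (interval -0.39 to 0.94, adjusted p = 0.595) and -0.04 (interval -0.69 to 0.62, adjusted p = 0.945). That of Id4 was -0.13 without D8 replicate 2 (adjusted p = 0.86). Changes inside these intervals were not detectable with 2 libraries a group.

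The 4 Id genes were also set beside each other per kb of exon. Summed over the 4 genes, the level was 91.3 and 73.9 CPM per kb in the D3 libraries and 112 and 123 CPM per kb in the D1 libraries. It was 62.5 and 116 CPM per kb in the D10 libraries and 94.98 and 131 CPM per kb in the D8 libraries, where the groups overlapped. Id1 made up 56.8% and 54.6% of that sum at D3, against 83.8% and 87.4% at D1. At D10 it made up 64.8% and 64.2%, against 88.0% and 80.9% at D8. Id3 took 35.8% and 37.7% at D3, against 10.7% and 7.26% at D1, and 26.7% and 28.7% at D10, against 6.69% and 13.9% at D8. Neither share overlapped between ML-792 and control libraries. Both genes are parts of the same sum and make up most of it, so a lower share of Id1 raises that of Id3. The level of Id3 itself overlapped between D10 and D8. The ratio of Id3 to Id1 per kb was 0.631 and 0.690 at D3, against 0.127 and 0.0830 at D1. At D10 it was 0.411 and 0.447, against 0.0760 and 0.171 at D8. The 2 D10 libraries differed in the level of both genes, each higher in replicate 2, but had nearly the same ratio. The ratio was set up after the levels were seen and is given as a description. The transcripts of Id1 and Id3 have GC contents of 54.7% and 55.6%.

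**Figure D3:**
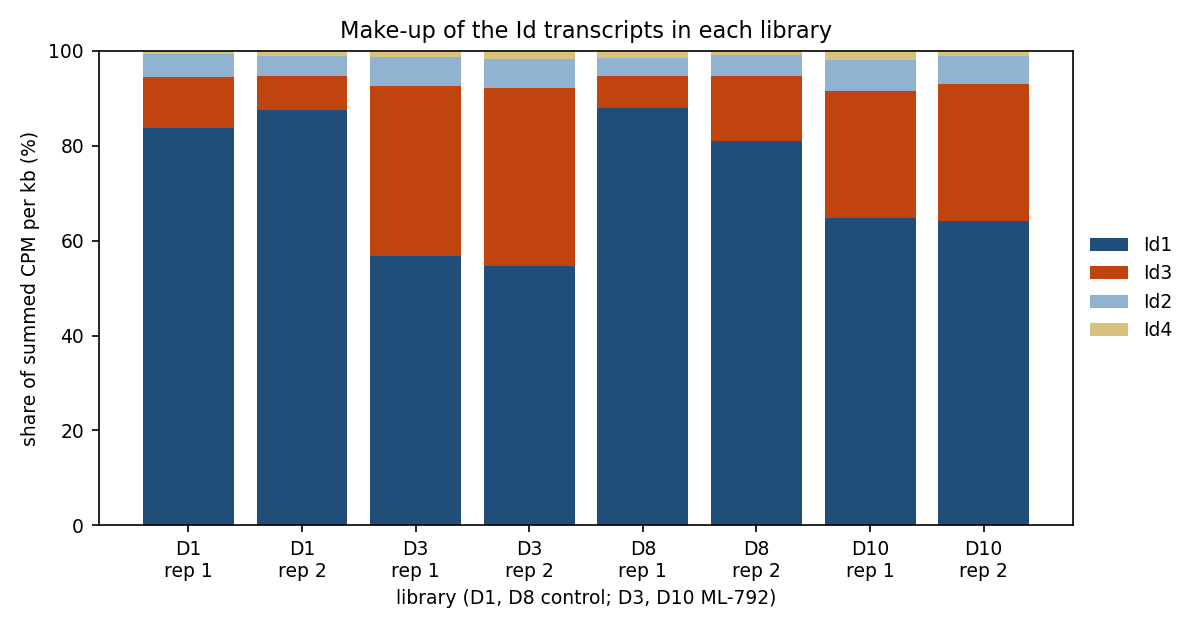
Share of each Id gene in the summed CPM per kb of the 4 Id genes (vertical axis, percent), 1 bar per library in the order of days. Id1 holds 54.6% to 64.8% in the D3 and D10 libraries and 80.9% to 88.0% in the D1 and D8 libraries, and Id3 holds 26.7% to 37.7% and 6.69% to 13.9% in the same libraries.

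Smad6 (ENSMUSG00000036867) encodes an inhibitory Smad that blocks BMP type I receptors and Smad1, and lies at chr9:63953076-64022059 on the minus strand. It had 1.73 and 2.51 CPM in the D3 libraries (41 and 72 reads), against 3.59 and 5.87 CPM in the D1 libraries (75 and 189 reads). In the D10 libraries it had 0.811 and 2.88 CPM (20 and 121 reads), against 3.53 and 6.21 CPM in the D8 libraries (108 and 193 reads). All 4 ML-792 libraries lay below all 4 control libraries, and replicate 2 was above replicate 1 in every group. The log2 fold change was -1.16 ± 0.55 at D3 (adjusted p = 0.211) and -1.36 ± 0.55 at D10 (adjusted p = 0.127), neither of them called. Without D10 replicate 2 the D10 value was -2.61 and was called (adjusted p = 0.0263), but it was -0.75 without D10 replicate 1 (adjusted p = 0.402) and -0.93 without D8 replicate 2 (adjusted p = 0.392). The D3 value was -0.76 without D1 replicate 2 (adjusted p = 0.607). On the mean of both exposures Smad6 fell by a log2 fold change of -1.26 ± 0.39 (adjusted p = 0.0384), or to 0.418 times the control level. That call was lost without D1 replicate 2 (adjusted p = 0.135), D3 replicate 1 (0.122), D3 replicate 2 (0.0675), D8 replicate 2 (0.0838, value -1.06) or D10 replicate 1 (0.054). Over the 8 libraries the log2 levels of Smad6 and Id1 had a Pearson r of 0.871, the highest among pairs of the 7 genes, and those of Id1 and Id3 had an r of -0.537. These describe 8 libraries that share groups and depth.

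Promoters are shown for the BMP targets that moved in opposite directions, Id3 and Smad6, with Id2, which was not called, beside them. They come from RefSeq on GRCm38.p6 and run from 250 bases before to 50 bases after the RefSeq start of the gene, 5′ to 3′ on its own strand. That start is the GENCODE M21 gene start for Smad6, but lies 325 bases downstream of it for Id3 and 1048 bases downstream for Id2, so these 2 windows lie inside the gene spans given above. An entry was matched for 6 of the 7 genes, not for Id1. The Id3 window is chr4:136143572-136143871 on the plus strand, the Smad6 window chr9:64022010-64022309 on the minus strand and the Id2 window chr12:25096043-25096342 on the minus strand. Capitals mark 2 short motifs known as Smad sites, GGCGCC and GTCT, on either strand (GTCT reads AGAC on the other).
Id3: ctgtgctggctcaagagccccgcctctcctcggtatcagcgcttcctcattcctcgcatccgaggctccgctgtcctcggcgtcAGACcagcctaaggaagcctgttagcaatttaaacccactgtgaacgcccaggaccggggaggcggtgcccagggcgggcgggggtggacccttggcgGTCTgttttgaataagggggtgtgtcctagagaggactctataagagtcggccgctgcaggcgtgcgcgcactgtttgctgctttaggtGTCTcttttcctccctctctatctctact
Smad6: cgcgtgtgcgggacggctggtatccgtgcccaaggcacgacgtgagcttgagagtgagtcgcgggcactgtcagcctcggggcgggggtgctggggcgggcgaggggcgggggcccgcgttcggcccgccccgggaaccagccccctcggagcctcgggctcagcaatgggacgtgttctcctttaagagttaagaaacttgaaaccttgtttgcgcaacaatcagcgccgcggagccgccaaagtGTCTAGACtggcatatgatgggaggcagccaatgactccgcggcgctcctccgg
Id2: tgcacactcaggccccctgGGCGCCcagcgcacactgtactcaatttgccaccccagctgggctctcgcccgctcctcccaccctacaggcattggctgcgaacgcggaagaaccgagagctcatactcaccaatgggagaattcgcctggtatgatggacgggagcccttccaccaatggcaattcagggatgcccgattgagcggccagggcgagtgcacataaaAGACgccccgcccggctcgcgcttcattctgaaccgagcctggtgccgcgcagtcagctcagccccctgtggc
GTCT was found 3 times in the Id3 window, 2 times in the Smad6 window and 1 time in the Id2 window, and 88% of the 32851 promoters in the table hold it. GGCGCC was found once in Id2 and in neither of the others, and 11.9% of promoters hold it. In Smad6 the pair of GTCT sites stands end to end as the palindrome GTCTAGAC, a motif looked up after the letters were seen, which 0.213% of promoters hold. The spaced form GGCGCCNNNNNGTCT, known from BMP-responsive enhancers, was in none of the 6 windows and in 0.0731% of promoters. Of the other windows, Bmp4 held GTCT 2 times and GGCGCC 0 times, Bmpr1a held each once, and Id4 held GGCGCC once. The matches describe letters in these windows.

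Other gene groups moved with these changes. The 10 two-cell-like markers, all above 1 CPM on average, summed to 2668 and 811 CPM in the D3 libraries, against 93.5 and 46.9 CPM in the D1 libraries. In the D10 libraries they summed to 571 and 578 CPM, against 7.03 and 12.4 CPM in the D8 libraries. The 8 embryonic stem cell markers summed to 3341 and 3540 CPM at D3, against 5005 and 5507 CPM at D1, and to 2579 and 2890 CPM at D10, against 5149 and 5674 CPM at D8. Of the 8, 2 were called lower at D3 and 7 at D10. Abundant genes weigh most in such a sum, such as Dppa5a, with means of 462 CPM at D3 and 1290 CPM at D1. Sox2 did not fall, with means of 349 CPM at D3, 325 CPM at D1, 376 CPM at D10 and 375 CPM at D8. In bulk RNA, fewer cells of a type and less RNA per cell cannot be told apart, and the part of these changes in the levels of Id1, Id3 and Smad6 was not tested. The GC trend also differed between the groups: its rho was -0.318 and -0.297 at D3 and -0.341 and 0.013 at D10, against -0.076 and 0.115 at D1 and 0.104 and 0.548 at D8. With an offset for GC content and length, the mean change was -0.74 for Id1 (adjusted p = 0.0103), 1.52 for Id3 (adjusted p = 0.00286) and -1.03 for Smad6 (adjusted p = 0.0386).

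The order of the 7 genes by level per kb also differed between the groups. At D3 it ran Id1 (46.1 ± 8.14 CPM per kb, SD, n = 2), Id3 (30.3 ± 3.46), Bmpr1a (26.1 ± 1.34), Bmp4 (18.3 ± 1.19), Id2 (5.03 ± 0.750), Id4 (1.21 ± 0.0130) and Smad6 (0.660 ± 0.172), and no neighbours overlapped. At D1 it ran Id1 (101 ± 9.76), Bmpr1a (24.9 ± 1.70), Bmp4 (16.9 ± 0.702), Id3 (10.4 ± 2.12), Id2 (5.36 ± 0.158), Smad6 (1.48 ± 0.504) and Id4 (0.994 ± 0.386), where the last pair overlapped. Id3 thus stood next to Id1 at D3 and behind Bmpr1a and Bmp4 at D1. At D10 it again came next after Id1, at 25.01 ± 11.8 CPM per kb against 57.5 ± 24.1 for Id1, but overlapped Bmpr1a at 23.9 ± 2.05. At D8 it stood at 12.2 ± 8.32, behind Id1 (94.7 ± 15.7), Bmp4 (19.7 ± 1.84) and Bmpr1a (18.3 ± 4.69), and Bmp4 overlapped Bmpr1a and Bmpr1a overlapped Id3. Smad6 was last in both ML-792 groups.

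Whether the second exposure differed from the first was tested as a difference of the log2 fold changes. By edgeR 0 of the 7 genes were called, by DESeq2 0, and 0 had an unadjusted p under 0.05, and among all genes tested edgeR called 0%, with 575 genes at an unadjusted p under 0.05 and 3 called by DESeq2. The differences, second minus first, were 0.41 for Id1 (95% interval -0.46 to 1.28), -0.51 for Id3 (-1.98 to 0.96) and -0.20 for Smad6 (-1.95 to 1.55). For Bmp4 the difference was -0.25 (-0.69 to 0.19) and for Bmpr1a it was 0.32 (-0.26 to 0.89). Id2 gave 0.34 (-0.60 to 1.28) and Id4 gave -0.31 (-1.25 to 0.62). With D8 replicate 2 left out, the differences were 0.58 for Id1, 0.42 for Id3, 0.25 for Smad6, -0.36 for Bmp4, 0.06 for Bmpr1a, 0.67 for Id2 and -0.38 for Id4, and edgeR called none of these 7. The loss of a call at D10 therefore does not show a smaller response there.

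The D8 libraries came 5 days after the end of the first exposure, and were set against D3 and D1. Against D3, 1 of the 7 genes was called, beside 22.5% of all genes tested. Id1 was higher at D8 than at D3 by a log2 value of 1.04 ± 0.27 (adjusted p = 0.0268), and the call was lost without D3 replicate 1 (0.0804), D3 replicate 2 (0.159) or D8 replicate 2 (0.0908). Id3 was lower at D8, by -1.31 ± 0.46, and was not called (adjusted p = 0.0752), though D8 and D3 libraries did not overlap; without D8 replicate 2 it was called, at -2.23 (adjusted p = 0.0102). Smad6 gave 1.20 ± 0.55 (adjusted p = 0.154) and Bmpr1a gave -0.51 ± 0.18 (adjusted p = 0.0726), neither called and neither overlapping, and Bmpr1a was called without D8 replicate 1 (-0.79, adjusted p = 0.00666). Without D8 replicate 2 Smad6 gave 0.76 (adjusted p = 0.484) and Bmpr1a gave -0.25 (adjusted p = 0.303). Against D1, edgeR and DESeq2 each called 0 of the 7 genes, with 1 at an unadjusted p under 0.05 (Bmpr1a), and 0.177% of all genes were called. There the log2 values were -0.09 for Id1 (95% interval -0.70 to 0.52), 0.23 for Id3 (-0.82 to 1.28), 0.04 for Smad6 (-1.17 to 1.24) and 0.22 for Bmp4 (-0.09 to 0.53). Bmpr1a was -0.44 (-0.85 to -0.04, adjusted p = 0.378) and was called without D8 replicate 1 (-0.73, adjusted p = 0.0469). Id2 was -0.21 (-0.88 to 0.45) and Id4 was 0.41 (-0.26 to 1.07). Without D8 replicate 2 the values against D1 were -0.27 for Id1, -0.71 for Id3, -0.43 for Smad6, 0.31 for Bmp4, -0.20 for Bmpr1a, -0.55 for Id2 and 0.47 for Id4, none of them called, and those of Id3 and Smad6 had changed sign. The 9 primitive endoderm markers, all above 1 CPM on average, summed to 989 and 1680 CPM at D8, against 243 and 336 CPM at D3 and 236 and 334 CPM at D1, and to 803 and 1317 CPM at D10. Trophoblast markers, 5 of 9 above 1 CPM, summed to 84.1 and 261 CPM at D8, against 28.8 and 32.0 CPM at D3 and 41.8 and 55.7 CPM at D1. The part of these markers' change in the D8 levels was not tested.

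Beyond the 7 genes, 69 other genes of the pathway were looked up, of which 52 passed the low-count filter. At D3, 2 were called higher and 5 lower than at D1, and at D10 3 higher and 4 lower than at D8, 13.5% of those tested each time, beside 13% of all genes at D3 and 16.9% at D10. These shares are near the background, and nothing particular to the pathway list is read from them. Their median log2 fold change was 0.13 and 0.15. Of the 10 listed target genes tested, 3 were called lower and 0 higher at D3 (30%), and 2 lower and 0 higher at D10 (20%). The rest were not called and had estimates in both directions, such as Dusp9 (-0.88 and -0.38) and Cdx2 (1.32 and 1.07). Among those called, Prdm1, a repressor used in germ cell specification downstream of BMP, fell to 1.39 and 2.93 CPM at D3, against 12.4 and 20.8 CPM at D1, a log2 fold change of -2.94 ± 0.43 (adjusted p = 0.0048). At D10 it fell to 1.499 and 2.78 CPM, against 17.0 and 19.1 CPM at D8 (-3.05 ± 0.42, adjusted p = 0.00312). Tbx3, a transcription factor of the naive pluripotent state, fell to 35.0 and 41.6 CPM at D3, against 76.2 and 77.4 CPM at D1 (-1.004 ± 0.14, adjusted p = 0.00465). At D10 it had 27.8 and 32.5 CPM, against 68.5 and 66.7 CPM at D8 (-1.16 ± 0.14, adjusted p = 0.0022). Gata2 fell at D3 (-2.29 ± 0.37, adjusted p = 0.00689) to 0.674 and 0.592 CPM, against 3.40 and 2.83 CPM at D1, and was not called at D10 (-0.89, adjusted p = 0.124).

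The genes of the Smads that carry the signal were not called. The log2 fold changes were 0.11 at D3 and -0.11 at D10 for Smad1, 0.09 and 0.01 for the shared partner Smad4 and 0.13 and 0.40 for Smad5. Smad9, with 4 to 38 reads per library, had 1.095 and 1.18 CPM at D3, against 0.526 and 0.590 CPM at D1, and 0.689 and 0.903 CPM at D10, against 0.131 and 0.676 CPM at D8. Its groups did not overlap at either exposure, though the nearest D10 and D8 libraries were almost level. The log2 fold changes of Smad9 were 1.02 ± 0.59 at D3 (adjusted p = 0.299) and 0.98 ± 0.60 at D10 (adjusted p = 0.298), with a mean of 1.001 ± 0.42 (adjusted p = 0.105, unadjusted p = 0.0414). Not called either were the type II receptor gene Bmpr2 (0.29 and 0.43) and the inhibitory Smad gene Smad7 (-0.03 and -0.58, adjusted p = 0.932 and 0.0631). Among receptors Acvrl1, a type I receptor gene best known in blood vessels, fell at D3 to 0.589 and 1.05 CPM, against 2.30 and 2.83 CPM at D1 (-1.63 ± 0.39, adjusted p = 0.0273). At D10 it fell to 0.770 and 0.998 CPM, against 4.12 and 6.27 CPM at D8 (-2.53 ± 0.38, adjusted p = 0.00395). Bmpr1b, another BMP type I receptor gene, rose at D3 to 2.15 and 1.67 CPM, against 0.765 and 0.373 CPM at D1 (1.79 ± 0.41, adjusted p = 0.0237), and was not called at D10 (0.91, adjusted p = 0.137). Per kb its mean was 0.320 CPM per kb at D3, where that of Bmpr1a was 26.1. Acvr1, also a BMP type I receptor gene, had 3.92 to 6.99 CPM over the libraries and was not called at either exposure (0.22 and 0.18). The ligand gene Bmp7 was not called at D3 (-1.09, adjusted p = 0.108) and fell at D10 to 2.55 and 4.59 CPM, against 8.67 and 12.6 CPM at D8 (-1.56 ± 0.39, adjusted p = 0.027).

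Among the secreted antagonists Fst, which encodes follistatin, a binder of activins and some BMPs, rose at both exposures. It had 3.33 and 9.37 CPM at D3, against 2.30 and 2.14 CPM at D1 (1.52 ± 0.42, adjusted p = 0.0476), and 14.5 and 15.5 CPM at D10, against 3.76 and 3.48 CPM at D8 (2.05 ± 0.41, adjusted p = 0.0123). The D3 call was lost without either D1 library, without D3 replicate 2 and without either D10 library, and also with the stricter low-count filter and with the compared groups alone. Tll1, whose product cleaves the BMP antagonist chordin, was not called at D3 (1.05, adjusted p = 0.0922). It had 2.61 and 2.02 CPM there, against 1.29 and 0.963 CPM at D1. Tll1 rose at D10 to 1.82 and 1.78 CPM, against 0.458 and 0.257 CPM at D8 (2.32 ± 0.40, adjusted p = 0.00688). The D8 libraries held 14 and 8 reads of it. Both D10 values were below those of D3, and D8 was below D1, a difference not called (-1.63, adjusted p = 0.203). Fstl1 fell at D3 to 29.9 and 48.6 CPM, against 68.9 and 125 CPM at D1 (-1.30 ± 0.32, adjusted p = 0.0308), and was not called at D10 (-0.95, adjusted p = 0.0748). Skil, which encodes SnoN, a repressor of Smad complexes, was not called at D3 (-0.01) and rose at D10 to 306 and 345 CPM, against 221 and 173 CPM at D8 (0.73 ± 0.15, adjusted p = 0.0142). The Skil call was lost with the GC and length offset, with the compared groups alone and without D10 replicate 2. On the mean of both exposures 25% of the 52 pathway genes tested were called, beside 30.4% of all genes. Acvr2a (0.58) and Chrdl1 (1.53) were called there but at neither exposure alone. The same held for Tcf12, of the E protein genes, whose products ID proteins bind. It gave 0.50 at D3 (adjusted p = 0.105) and 0.51 at D10 (adjusted p = 0.083), and rose on the mean (0.50 ± 0.13, adjusted p = 0.0161). The Tcf12 call was lost without either D1 library, either D3 library or D10 replicate 1. The calls of Acvr2a and Chrdl1 on the mean each held in only 1 of the 8 fits with a library left out. Chrdl1 had 3 to 14 reads per library, and its call was also lost by DESeq2. Tcf3 gave 0.01 at D3 and -0.36 at D10, and Tcf4 gave 0.05 and 0.35, none of them called. Other calls of this list also rested on single libraries. At D3 the call was lost for Bmpr1b without D1 replicate 2 or either D3 library, for Acvrl1 without either D1 library or D3 replicate 1, for Fstl1 without D1 replicate 2 or D3 replicate 1, and for Tbx3 without D3 replicate 1. At D10 it was lost for Bmp7 without D8 replicate 2 or D10 replicate 1 and with the compared groups alone, and for Fst without D8 replicate 2. The Prdm1 calls at both exposures and the Tbx3, Acvrl1 and Tll1 calls at D10 held without each library in turn, as did that of Gata2 at D3.

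**Figure D4:**
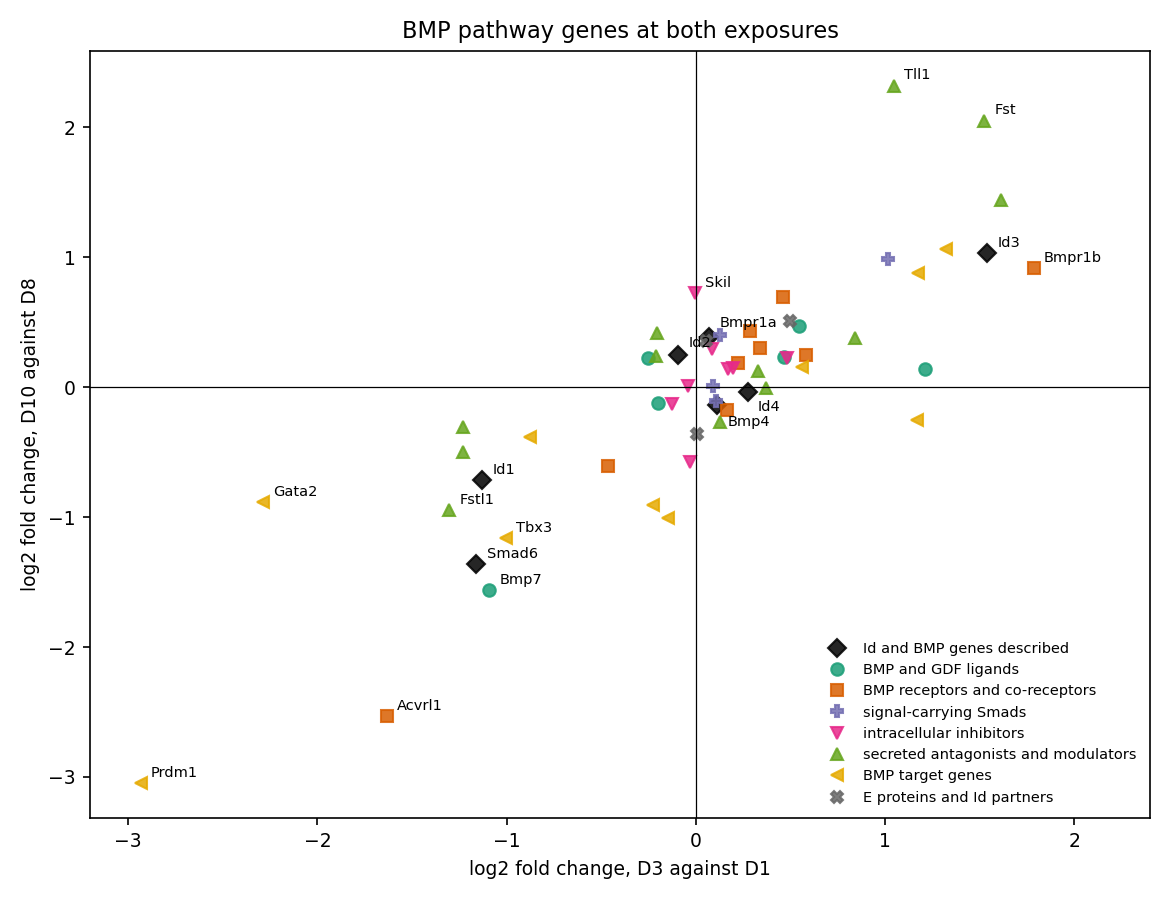
Log2 fold change at D3 against D1 (horizontal) and at D10 against D8 (vertical) for the 7 genes (black diamonds) and the 52 other pathway genes tested, coloured by role; each exposure has its own 2 control libraries. Prdm1 is lowest on both axes (-2.94 and -3.05), Tll1 and Fst are highest on the vertical axis, and Id1 and Smad6 lie in the lower left and Id3 in the upper right.

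Genes whose level followed each gene most closely over the 8 libraries were sought among 10348 genes with a mean of at least 5 CPM, by Pearson r of log2 CPM, as a description with no test. For Id1 these were Tk1 (r = 0.978), Tead2 (0.976) and Sec14l2 (0.976). For Id3 they were Znhit3 (0.966), Cebpa (0.963) and Wrap53 (0.962), and for Smad6 Alkbh7 (0.992), 8030474K03Rik (0.989) and Fggy (0.986). Bmpr1a was followed most closely by Ubxn2a (0.991), Bmp4 by Hipk2 (0.971), Id2 by Kpnb1 (0.978) and Id4 by Tbcel (0.966). The libraries share groups and depth trends, which also enter such an r.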

How the data were processed

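The 8 RNA-seq libraries of R1 cells fell into the groups D1, D3, D8 and D10, 2 in each. The authors deposited raw counts: whole reads for each Ensembl gene, not normalized. Per the submitters' processing notes, bcl2fastq 2.17.1.14, STAR 2.5.0a, featureCounts and the build mm10 were used; for featureCounts the version, annotation release, strand and multi-mapping settings were not given in the sources used here. The molecule is labelled polyA RNA, but the protocol in the labels is for total RNA depleted of ribosomal RNA.

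Symbols, coordinates and exon lengths came from GENCODE M21 (mm10), which matched 36901 of 36920 identifiers. Of these identifiers, 1438 had no read, and 19173 genes passed edgeR's filterByExpr. The 4 groups were fitted together in edgeR 4.0.16 (R 4.3.3) with TMM scaling and the quasi-likelihood test, 2-sided, on 4 residual degrees of freedom (biological coefficient of variation 19.6%). Comparisons were contrasts of that fit, with Benjamini-Hochberg adjustment over all genes tested. Intervals are 95% and use edgeR's moderated degrees of freedom; log2 CPM used a prior count of 2. Levels per kb divide by the union of exons. The SE covers the spread between libraries. Alternatives were RLE size factors, no low-count filter or one of 1 CPM in 4 libraries, DESeq2 1.42.0, a replicate block, a GC and length offset (lowess, span 0.3), the compared groups alone, and leaving out each library. The procedure was tested on simulated data. All 7 genes were named in every comparison, and other pathway genes where called in D3 against D1 or D10 against D8, plus Smad1, Smad4, Smad5, Smad7 and Bmpr2 of the signalling chain. Smad9, Tcf3, Tcf4, Tcf12, Acvr1, Acvr2a, Chrdl1, Dusp9 and Cdx2 were added after their values were seen. The 7 genes and all lists were chosen with earlier results of these data known. No protein sequence was used here.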

Additional observations from a re-analysis of the deposited data

How the results depend on the processing

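The directions of Id1, Id3 and Smad6 held under each of 16 alternatives at D3 against D1 and at D10 against D8, and under each of 15 on the mean of both exposures. On the mean, Id1 was called in 15 of 15 (adjusted p up to 0.0334), Id3 in 12 (up to 0.0757) and Smad6 in 10 (up to 0.135). At D3, Id1 was called in 12, Id3 in 10 and Smad6 in 4 of 16, and at D10 Id1 was called in 3, Id3 in 4 and Smad6 in 4 of 16.

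Of the 7 genes, 1 was called at D3 against D1, against 3 with no low-count filter, 3 with the replicate block, 2 with the GC and length offset, 3 with that offset and the block, 2 by DESeq2 and 3 in the compared groups alone; leaving out 1 library gave 0 to 2. At D10 against D8, 0 were called, against 3 with no filter, 2 with the block, 1 with the offset and 2 with both; leaving out 1 library gave 0 to 2. On the mean, 3 were called, and 1 to 4 with 1 library left out. At D8 against D3, 1 was called, against 4 with no filter, 4 with the block, 2 with the offset, 2 with both and 2 by DESeq2, with 0 to 2 when 1 library was left out. At D8 against D1, leaving out 1 library gave 0 to 1.

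Over all genes, D3 against D1 gave 2496 calls, 3847 with no filter, 4187 with the block, 5026 with offset and block, 4035 in the compared groups alone and 387 to 3238 with 1 library left out. D10 against D8 gave 3244, 5298 with the block, 5528 with offset and block, 1512 in the compared groups alone and 1420 to 4304 with 1 left out. The mean gave 5838, and 3823 to 7140 with 1 left out. The second minus the first exposure gave 0, 66 with no filter and 3 by DESeq2. D8 against D1 gave 34, 973 with no filter, 21 with the stricter filter, 535 with the block, 64 with the offset, 534 with both, 429 by DESeq2, 2 in the compared groups alone and 0 to 436 with 1 left out. D8 against D3 gave 4312, 6547 with the block, 6567 with offset and block, and 1522 to 5869 with 1 left out. The other pathway genes called numbered 7 at D3 (10 with the block, 3 to 8 with 1 left out), 7 at D10 (14 with the block, 12 with no filter, 6 to 14 with 1 left out), 13 on the mean (23 with the block, 9 to 19 with 1 left out) and 10 at D8 against D3 (17 with the block, 4 to 16 with 1 left out). The cause of these shifts was not tested.

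Values near 0 changed sign. With the GC and length offset, alone and with the block, Bmpr1a at D3 was -0.07 and -0.07, and the mean was -0.02 and -0.02 for Id2, -0.04 and -0.03 for Id4 and 0.10 and 0.10 for Bmp4 (0.01 with the stricter filter). At D8 against D1 Smad6 was then -0.23 and -0.21, and Id3 -0.02 with both; at D8 against D3 Id2 was 0.05 and 0.00, and Bmp4 -0.07 and -0.08. Leaving out 1 library gave ranges across 0 at D3 for Id2 (-0.26 to 0.03), Id4 (-0.09 to 0.75) and Bmpr1a (0.00 to 0.11). At D10 the ranges were -0.21 to 0.57 for Id2 and -0.15 to 0.05 for Id4. On the mean they were -0.16 to 0.23 for Id2, -0.08 to 0.35 for Id4 and -0.09 to 0.03 for Bmp4. For the second minus the first exposure they were -0.12 to 0.81 (Id1), -0.10 to 0.68 (Id2), -1.11 to 0.42 (Id3), -0.79 to 0.02 (Id4) and -1.44 to 0.42 (Smad6). At D8 against D1 they were -0.27 to 0.07 (Id1), -0.55 to 0.07 (Id2), -0.71 to 0.80 (Id3) and -0.43 to 0.45 (Smad6), and at D8 against D3 -0.44 to 0.17 (Id2).

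With 2 libraries a group the replicate numbers could not be shown to pair the libraries. Deviations of replicate 1 correlated at 0.101 to 0.498 over the 6 pairs of groups, and no label ties the numbers together. With the replicate block, calls were gained for Smad6 at D3 (-1.15, adjusted p = 0.0296) and D10 (-1.47, 0.00781), Id3 at D3 (1.54, 0.0192), Id1 at D10 (-0.74, 0.0347) and, at D8 against D3, Id3 (-1.43, 0.0182), Smad6 (1.18, 0.0171) and Bmpr1a (-0.53, 0.0195); no call among the 7 genes was lost. Leaving out 1 library leaves 1 in that group, assumed to vary like the others. Among the 7 genes, Smad6, with as few as 20 reads in a library, is the least precise of those called.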
